A study of Danio rerio with 20 samples.

Results

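The data compare muscle of male zebrafish aged 3 years with that of males aged 1 year, in fish that had not been exercised. The members are the 5 libraries whose labels give an age of 3 years and no perturbation, and the 5 whose labels give 1 year and no perturbation, so 10 of the 20 libraries of the study. All fish were of the strain given as AB JxTu, and the tissue is labelled muscle. The other 10 libraries came from fish of the same ages, strain and sex put through a swim tunnel, and they serve below as a comparison. RNA was read as counts per Ensembl gene after TruSeq library preparation. The labels name neither the muscle taken nor whether fish were pooled, and they give no batch, date, hour of sampling or link between fish. P-values therefore measure the spread between these samples. For any gene, a difference with age cannot be told apart from a difference of batch, date or hour of sampling.

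The label of muscle was checked against marker genes. The 29 genes of the fast fibre list, none at 0 in the 10 libraries, summed to 144926 to 226257 CPM (counts scaled to a common library size) at 1 year and 168472 to 219519 at 3 years. Markers of neighbouring tissues were present too. The 50 epidermis genes summed to 7331 CPM in 1y_control 5, against 965 to 1772 in the other 9 libraries. Of the defining markers, only syt1b (nerve), EGLN1 (vessel), hbae1.1 and SLC4A1 (red blood cell) and zp2.1 and zp2.2 (germ cell) were at 0 in all 10. Nerve and glia markers had their highest scores, the mean centred log2 CPM of the list, in 1y_control 4 (2.17) and 1y_control 1 (1.35). Their summed CPM ranked libraries otherwise. It was highest in 3y_control 1 (1076), then 983 in 1y_control 4, 975 in 1y_control 2 and 932 in 1y_control 1. In whole tissue, fewer cells of a type and less RNA per cell cannot be told apart. Totals were 31550213 to 48920974 counts per library. Mitochondrially encoded genes made up 13.04 ± 2.11% of counts at 1 year and 11.6 ± 2.24% at 3 years (SD, n = 5; two-sided exact permutation p = 0.302, adjusted p = 0.755 over 5 library measures).

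Skeletal muscle of fish is largely fast glycolytic muscle, in which contraction, glycolysis and growth signals are tied to activity and feeding. Muscle also carries a circadian clock. In it the activators CLOCK and BMAL switch on the period and cryptochrome genes, whose proteins feed back and block the activators. A further loop of the ROR and NR1D nuclear receptors acts on the BMAL genes, and the factors DBP and NFIL3 carry the rhythm to target genes with opposite effects. Zebrafish tissues are known to set such clocks directly by light.

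Of 17025 genes tested, 203 were called at an adjusted p under 0.05 (1.19% of genes tested). At 3 years 112 were higher (0.658%) and 91 lower (0.535%). The median size of a called change was 1.098 on the log2 scale, and 120 of the 203 changed at least 2-fold, 67 of them higher and 53 lower. CPM of the 5 younger and 5 older libraries did not overlap for 167 of the 203, against 705 of all genes tested (4.14%). An unadjusted p under 0.05 was reached by 2701 of the 17025 genes, and DESeq2 called 720 and voom 676. The counts of list members given below for these thresholds stand against those totals. How many genes passed moved with the libraries used. Without 1 library at a time the count was lowest without 1y_control 1 (56 genes) and 1y_control 3 (64) and highest without 3y_control 1 (403), with 87, 99, 102, 106 and 125 without 3y_control 2, 3y_control 4, 1y_control 4, 3y_control 5 and 3y_control 3. Leaving out both 1y_control 4 and 1y_control 1, the libraries with the highest nerve scores, left 9 genes. They were the clock genes dbpa, ciarta, PER2 and RORA, the clock regulator cipcb, the transferrin receptor tfr1b, and zgc:194659, si:dkey-18a10.3 and si:ch211-132b12.7, which carry no name of known function in the annotation used. Of these 9 zgc:194659 was higher at 3 years and the other 8 lower. No other pair of libraries was left out together, so whether the loss of calls was tied to nerve markers or to fewer libraries was not tested.

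The circadian clock was the list with the highest share of calls. The lists were chosen with earlier results of these data known. The share of calls in a list and its rank among the lists are therefore descriptive and no independent test. Of 47 clock genes tested, 15 were called (31.9%, against 1.19% of all genes tested), 11 lower and 4 higher at 3 years. The median over the 47 was -0.20 on the log2 scale, against 0.01 for all genes, and was -0.33 without 3y_control 2 and -0.06 without 3y_control 1. CPM of older and younger libraries did not overlap for 19 of the 47, among them all 15 called, beside 167 of the 203 called genes and 4.14% of all genes tested. The naming rule covers rorcb, PER2, PER3, RORA, NR1D1, nfil3-5, NFIL3, the genes listed as PER1 and BMAL1, and cipcb; the other clock genes below were chosen after their values were seen.

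**Figure D1:**
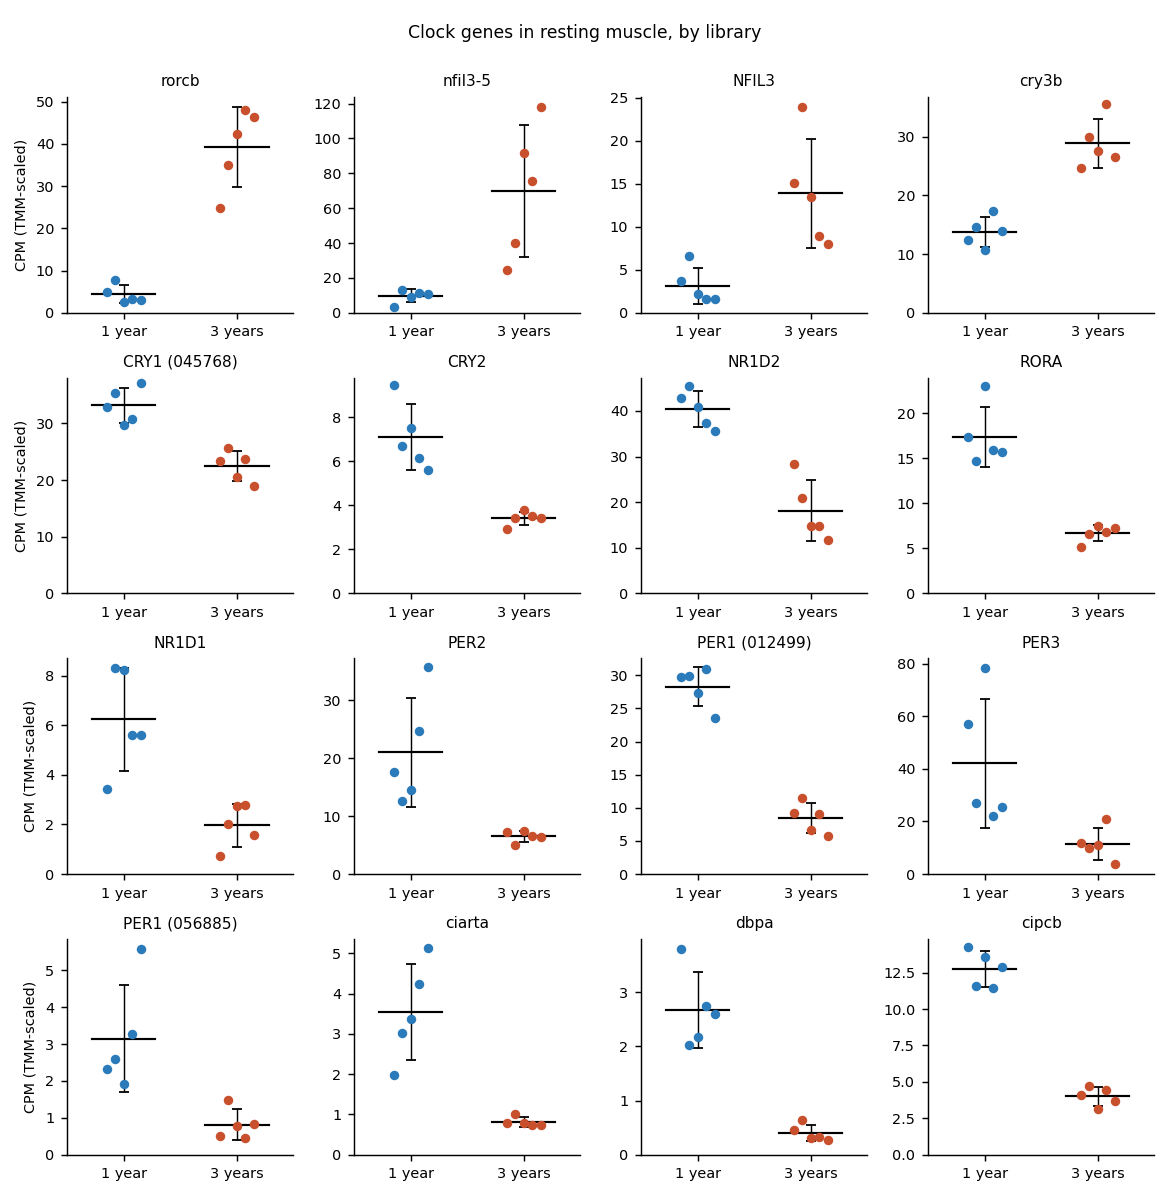
CPM (linear axes from 0) of the 15 called clock genes and of cipcb in each resting library, 1 year in blue and 3 years in orange; the bar is the mean and the whiskers the SD (n = 5). No gene shown has overlapping groups, and rorcb spans 2.63 to 7.85 CPM at 1 year and 24.9 to 47.9 CPM at 3 years.

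Among the repressors that close the loop, the period genes were lower at 3 years. PER2 (ENSDARG00000034503), a light-responsive period gene in zebrafish, was at 17.6, 12.5, 14.5, 24.6 and 35.6 CPM in 1y_control 1 to 5 and at 7.28, 4.95, 7.36, 6.62 and 6.38 CPM in 3y_control 1 to 5. The older libraries were tightly grouped and the younger ones spread nearly 3-fold, with 1y_control 5 highest. The change was -1.69 ± 0.25 on the log2 scale (SE, adjusted p = 0.00411). Both genes listed as PER1 fell. The one with the identifier ENSDARG00000012499 went from 29.8, 29.8, 27.3, 30.9 and 23.5 CPM to 9.27, 11.4, 6.64, 9.08 and 5.72 CPM (log2 change -1.75 ± 0.31, adjusted p = 0.0117). Its younger libraries were the tighter group. The other, ENSDARG00000056885, stood at 2.32, 2.60, 1.93, 3.28 and 5.58 CPM and 0.507, 1.497, 0.770, 0.463 and 0.844 CPM (log2 change -1.94 ± 0.37, adjusted p = 0.0161). PER3 (ENSDARG00000010519) had 57.2, 27.0, 78.2, 22.2 and 25.7 CPM at 1 year and 11.9, 9.89, 11.0, 20.8 and 3.82 CPM at 3 years. Its highest older library, 3y_control 4, came close to its lowest younger one, 1y_control 4, and the change was -1.87 ± 0.43 (adjusted p = 0.0409).

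The cryptochromes, partners of the period proteins, did not move as one. CRY1 (ENSDARG00000045768) fell from 29.7 to 37.1 CPM to 18.99 to 25.7 CPM (log2 change -0.56 ± 0.11, adjusted p = 0.0160). CRY2 (ENSDARG00000102403) fell from 5.63 to 9.47 CPM to 2.93 to 3.78 CPM (log2 change -1.06 ± 0.18, adjusted p = 0.00964). By contrast cry3b rose, from 12.3, 14.6, 10.6, 17.3 and 13.9 CPM in the younger to 24.7, 30.0, 27.6, 35.5 and 26.5 CPM in the older libraries (log2 change 1.07 ± 0.20, adjusted p = 0.0142). For cry5, a related photolyase-like gene, the change was -1.19 ± 0.45 with an adjusted p of 0.198.

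Other brakes on CLOCK and BMAL were also lower. The zebrafish gene ciarta, named after a repressor known as CHRONO in mammals, read 1.99, 3.02, 3.37, 4.24 and 5.13 CPM at 1 year and 0.784, 1.01, 0.794, 0.741 and 0.738 CPM at 3 years. All older libraries sat near 1 CPM or under, and the change was -2.12 ± 0.32 (adjusted p = 0.00411). Its paralogue ciartb had a like change, -1.45 ± 0.40, and did not pass (adjusted p = 0.0846). The lowest adjusted p of all genes belonged to cipcb, from a family that binds CLOCK and is not on the clock list. It was at 14.2, 11.6, 13.6, 11.4 and 12.9 CPM in the younger and 4.08, 4.71, 3.13, 4.45 and 3.67 CPM in the older libraries, a 3.18-fold difference with little spread in either group (log2 change -1.67 ± 0.13, adjusted p = 9.8e-07).

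In the ROR and NR1D loop, the receptors moved in different directions. rorcb, a zebrafish gene of the ROR gamma type that activates through the same sites as NR1D represses, had 5.02, 7.85, 2.63, 3.36 and 3.13 CPM in the younger libraries and 24.9, 34.9, 42.3, 47.9 and 46.3 CPM in the older ones. Its lowest older library was above 3 times its highest younger one, and the change was 3.15 ± 0.43 (adjusted p = 0.00154). RORA, another activator of the family, fell from 14.7 to 23.1 CPM to 5.21 to 7.53 CPM (log2 change -1.37 ± 0.21, adjusted p = 0.00434). NR1D1 (ENSDARG00000033160), a repressor of BMAL genes, had 3.41, 8.31, 8.23, 5.61 and 5.61 CPM at 1 year and 0.738, 2.03, 2.74, 2.80 and 1.56 CPM at 3 years (log2 change -1.66 ± 0.34, adjusted p = 0.0205). Library 1 of each age was the lowest of its group. NR1D2 (ENSDARG00000009594) fell from 35.5 to 45.5 CPM to 11.8 to 28.3 CPM (log2 change -1.16 ± 0.22, adjusted p = 0.0161). The related nr1d2a and a repressor of another family, BHLHE41, ranged widely among fish of the same age. nr1d2a was at 14.5, 61.3, 42.9, 138 and 203 CPM at 1 year and 9.54, 32.3, 28.7, 43.2 and 56.3 CPM at 3 years, and BHLHE41 at 11.7, 50.1, 65.5, 96.9 and 171 and 8.46, 17.3, 34.4, 57.2 and 58.9 CPM. Both were lowest in library 1 and highest in library 5 of each age, and BHLHE41 rose at each step between them. Library numbers follow the order in which the samples are listed. Whether that order was tied to the hour of sampling was not tested. The groups overlapped for both genes, and neither passed (adjusted p = 0.215 and 0.328).

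The output factors of opposite effect moved in opposite directions. dbpa, an activator at D-box sites, read 3.80, 2.03, 2.17, 2.73 and 2.59 CPM at 1 year and 0.461, 0.639, 0.313, 0.324 and 0.264 CPM at 3 years (log2 change -2.72 ± 0.32, adjusted p = 0.000334). Of the repressors that bind the same sites, nfil3-5 read 3.54, 13.2, 9.03, 11.4 and 11.0 CPM and 24.7, 40.19, 91.5, 75.8 and 118 CPM (log2 change 2.86 ± 0.46, adjusted p = 0.00708). Older libraries of nfil3-5 spread nearly 5-fold, with 3y_control 1 lowest, yet all lay above the younger ones. NFIL3 (ENSDARG00000042977) read 3.71, 6.55, 2.23, 1.65 and 1.62 CPM and 15.1, 23.9, 13.4, 8.94 and 8.04 CPM (log2 change 2.13 ± 0.45, adjusted p = 0.0237). At the start of the loop the BMAL genes had positive changes that did not pass. They were 0.36 ± 0.15 (adjusted p = 0.224) and 0.88 ± 0.38 (0.265) for the genes listed as BMAL1 (ENSDARG00000006791 and ENSDARG00000035732), and 1.12 ± 0.28 (0.0590) for bmal2, whose groups did not overlap. NOCT (ENSDARG00000077726), a rhythmic enzyme gene, had -1.101 ± 0.42 (0.202).

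Of the 15 called clock genes, 12 were called in each of the 10 fits that left out 1 library. Those fits kept the 10 exercised libraries in the estimate of spread. With only the 10 libraries compared, 10 of the 15 were called, 3 higher and 7 lower. The call of NR1D1 was lost without 1y_control 3, 3y_control 2 or 3y_control 5 (log2 changes -1.82 to -1.45 over the 10 fits). That of PER3 was lost without 1y_control 1, 1y_control 3, 3y_control 2, 3y_control 3 or 3y_control 5 (-2.196 to -1.52). That of NFIL3 was lost without 3y_control 2 or any younger library but 1y_control 2 (1.85 to 2.59). Without both 1y_control 4 and 1y_control 1, only 4 of the 15 passed, all lower at 3 years, with 3 younger libraries left. Of those lost, rorcb was at 3.08, nfil3-5 at 2.63, PER1 (ENSDARG00000012499) at -1.71 and cry3b at 1.11, with adjusted p of 0.0567, 0.0886, 0.0919 and 0.0919. Transcripts of the clock cycle with the time of day and the labels give no hour of sampling, so a lasting change of level and a change of phase or of sampling hour cannot be told apart.

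**Figure D2:**
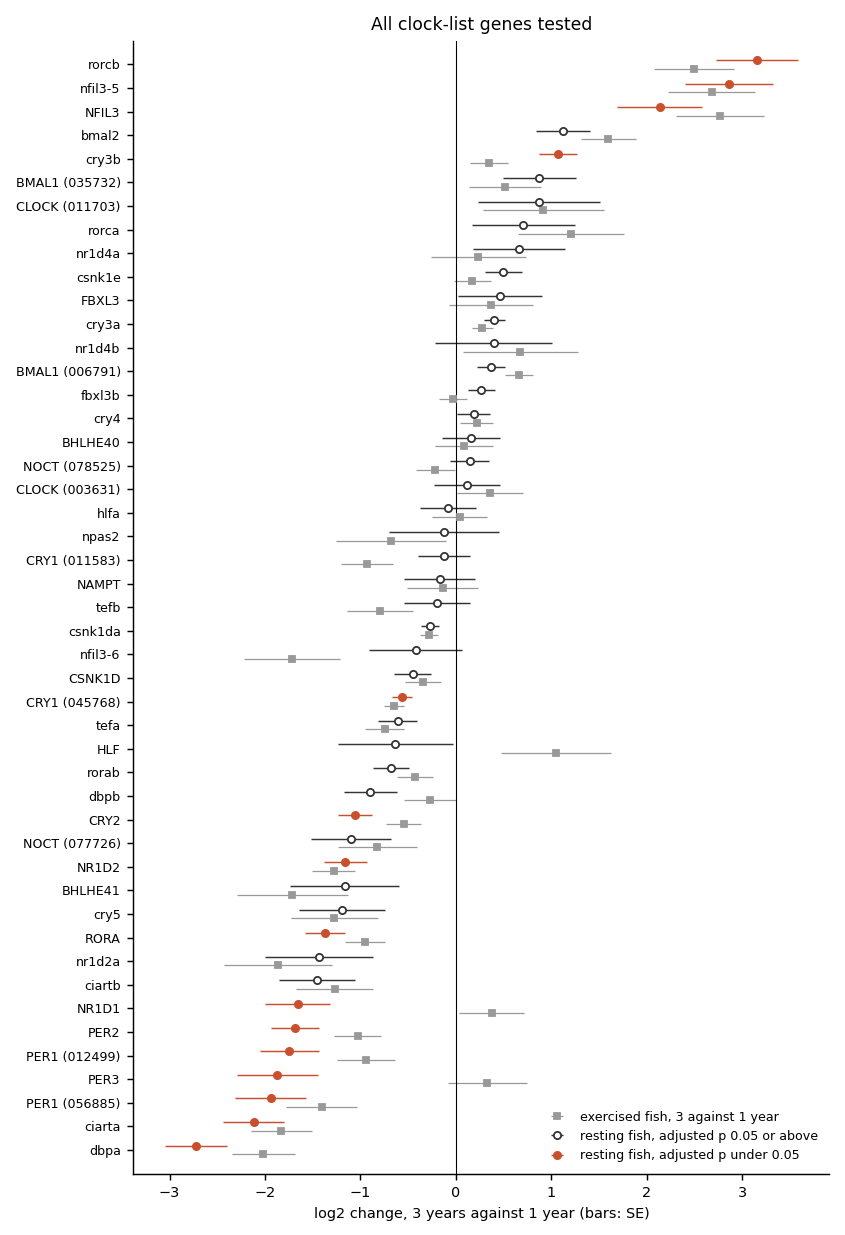
Log2 change (3 years against 1 year) with SE bars of all 47 clock-list genes tested, in resting fish (circles, orange where the adjusted p was under 0.05) and in exercised fish (grey squares). The digits in brackets are the end of an Ensembl identifier. In resting fish dbpa is lowest and rorcb highest, and NR1D1 and PER3 lie on opposite sides of 0 in the 2 states.

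Exercised fish of the same ages share no library with the resting fish. There 13 of the 15 genes had the same direction, beside 183 of all 203 genes called at rest, and 12 of those were called (17.7% of all genes tested were called in exercised fish), with dbpa at -2.02 ± 0.33, rorcb at 2.50 ± 0.42 and nfil3-5 at 2.68 ± 0.46. The exceptions in direction were NR1D1 at 0.37 ± 0.34 (adjusted p = 0.486) and PER3 at 0.33 ± 0.41 (0.627). The test of the difference between resting and exercised fish did not pass for either (adjusted p = 0.0796 and 0.104), nor for any other clock gene in edgeR (4 of 47 at an unadjusted p under 0.05, and 2 called with DESeq2).

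Lists of the contractile machinery held 0 or 1 edgeR call each, beside 1.19% of all genes tested, and 1 fast myosin fell. myhz2 (ENSDARG00000012944), a fast myosin heavy chain gene, was at 262, 255, 285, 197 and 168 CPM in the younger and 35.8, 33.6, 79.6, 59.3 and 43.7 CPM in the older libraries. The lowest younger library was above 2 times the highest older one, and the change was -2.21 ± 0.37 (adjusted p = 0.00945). It was the only edgeR call among 29 fast fibre genes (3.45%, median 0.10), whose changes ran from -2.21 to 3.37. At an unadjusted p under 0.05 2 of the 29 were higher and 1 lower. DESeq2 called 1 higher and 1 lower, and voom 1 lower. Fast myosin genes are near-identical copies and can share reads, so the value of a single copy is uncertain. In exercised fish the log2 change of myhz2 was 0.11 ± 0.35 (adjusted p = 0.860), and the difference between the states came near the threshold (adjusted p = 0.0544). Of 21 slow fibre genes 1 was called (4.76%), ATP2A2, a calcium pump of slow and cardiac muscle, which fell (log2 change -0.91 ± 0.22, adjusted p = 0.0464). The median of the slow fibre list was 0.64, and 0.18 without 3y_control 3. Smooth muscle was not a list, so its genes have no share of calls. Of them, 2 chosen after their values were seen fell. The myosin MYH11 went from 37.2 to 58.5 CPM to 25.6 to 32.5 CPM (log2 change -0.74 ± 0.16, adjusted p = 0.0281). The kinase MYLK, which switches such myosins on, changed by -0.52 ± 0.10 (adjusted p = 0.0177). No gene of the sarcomere and Z-disc list (34 tested) or of calcium handling (22 tested) was called by edgeR; 5 and 4 had an unadjusted p under 0.05, DESeq2 called 1 and 0, and voom 1 and 1. Without 1y_control 2 edgeR called 1 calcium handling gene, higher.

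FST, follistatin, which binds and blocks myostatin and activins, was at 6.21, 5.97, 9.03, 6.52 and 5.84 CPM in the younger libraries and 27.6, 14.1, 24.9, 29.7 and 15.5 CPM in the older ones. The older libraries fell into a pair near 15 CPM and 3 above 24 CPM, all over the younger ones (log2 change 1.74 ± 0.29, adjusted p = 0.00964). It was the only call among 54 genes of growth signalling (1.85%, median 0.01). ASB15, a muscle gene with ankyrin repeats and a SOCS box, read 0.986, 1.08, 1.101, 3.72 and 1.19 CPM and 6.73, 9.80, 11.0, 15.2 and 23.8 CPM (log2 change 3.04 ± 0.60, adjusted p = 0.0182). 1y_control 4 was the highest of the younger fish. The related asb5a, chosen after its values were seen, rose from 11.2 to 18.1 CPM to 23.7 to 35.6 CPM (log2 change 1.04 ± 0.20, adjusted p = 0.0165).

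In the list of atrophy and autophagy 3 of 51 genes rose and none fell (5.88%, median 0.16). FOXO4, a transcription factor of the family that drives atrophy genes, was at 13.7, 22.9, 17.8, 19.6 and 18.4 CPM and 27.7, 37.7, 31.6, 31.0 and 31.8 CPM (log2 change 0.79 ± 0.14, adjusted p = 0.0117). ATG14, a subunit of the lipid kinase complex that starts autophagosomes, was at 6.41, 7.41, 6.73, 7.55 and 5.97 CPM and 9.86, 12.05, 8.93, 12.02 and 10.4 CPM (log2 change 0.64 ± 0.12, adjusted p = 0.0161). The older libraries of both lay above all younger ones. WIPI1, which binds the lipid that this complex makes, rose with overlapping groups (log2 change 0.70 ± 0.16, adjusted p = 0.0415). Cargo receptors of autophagy were not a list of their own, so they have no share of calls. Of them, nbr1a, picked after its values were seen, rose by 0.52 ± 0.12 (adjusted p = 0.0412). CALCOCO1 rose by 2.15 ± 0.50 (adjusted p = 0.0416). CALCOCO1 was uneven among older fish, at 57.7, 285, 53.3, 199.8 and 84.2 CPM, against 17.8 to 46.5 CPM at 1 year. MYOG, the myogenin gene of late muscle differentiation, had non-overlapping groups and did not pass (log2 change 1.48 ± 0.37, adjusted p = 0.0590).

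The calls of FST, FOXO4 and myhz2 were made in each of the 10 fits without 1 library. Those of ASB15, asb5a and ATG14 were lost without 1y_control 1 or 1y_control 3, and their log2 changes over the 10 fits were 2.73 to 3.61, 0.97 to 1.14 and 0.58 to 0.70. WIPI1 was still called without 1y_control 1 or 3y_control 4 and lost without each of the other 8 (0.61 to 0.80), and CALCOCO1 was still called without 3y_control 1 or 3y_control 3 (1.69 to 2.36). nbr1a was called without 1y_control 2, 3y_control 1 or 3y_control 3 (0.44 to 0.59), ATP2A2 without 1y_control 2, 1y_control 3 or 3y_control 1 (-1.02 to -0.70), MYH11 without 1y_control 2, 1y_control 5, 3y_control 1 or 3y_control 3 (-0.82 to -0.66), and MYLK was lost without 1y_control 1, 1y_control 3 or 3y_control 2 (-0.60 to -0.46).

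**Figure D3:**
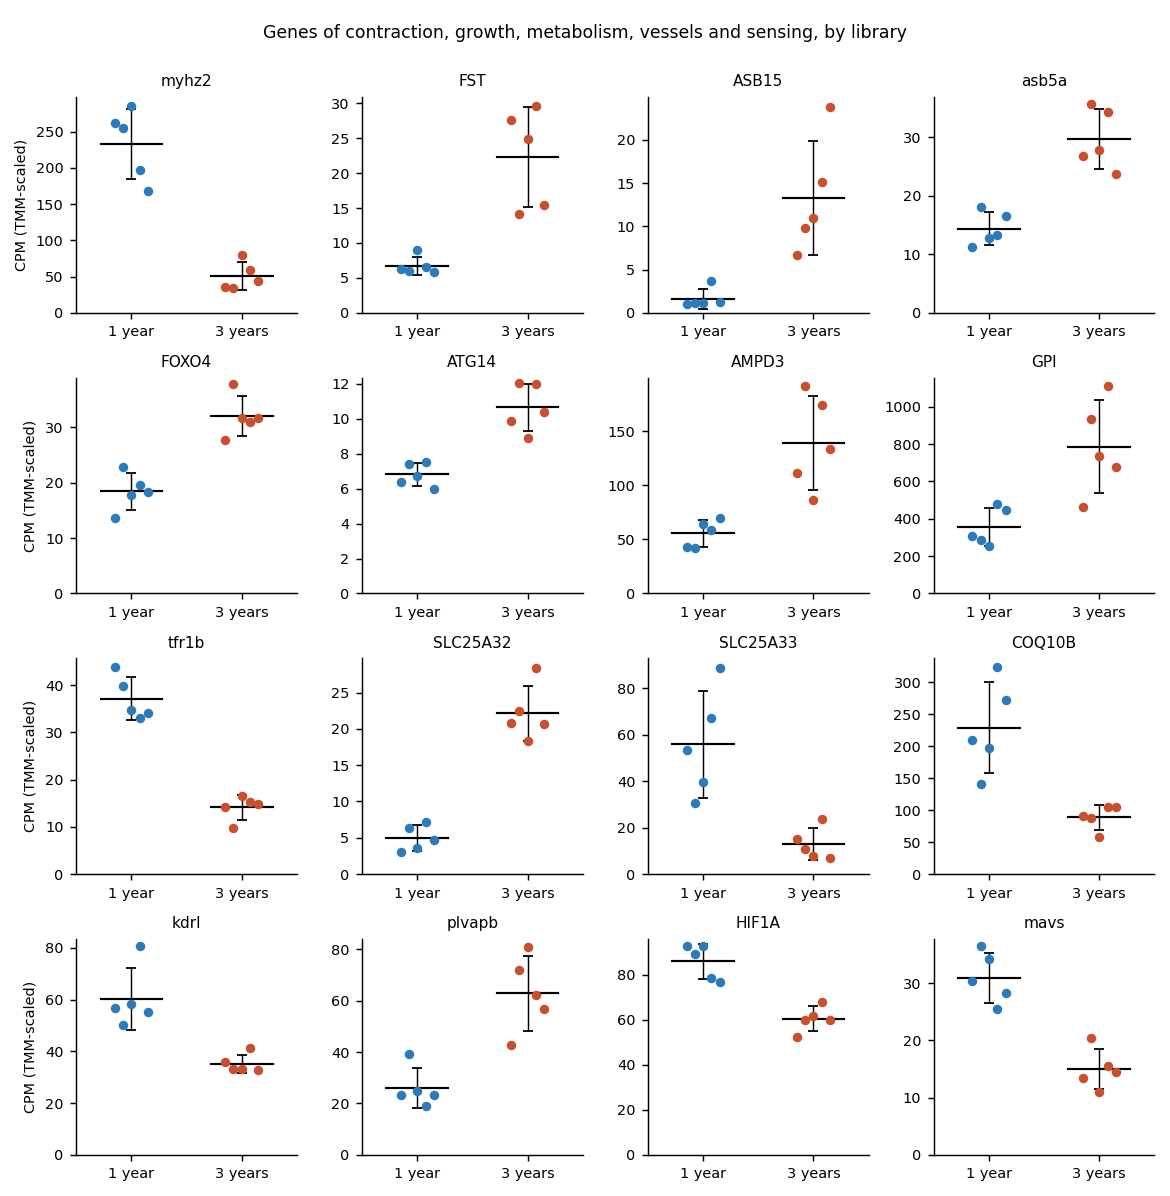
CPM (linear axes from 0) of 16 genes in each resting library, 1 year in blue and 3 years in orange, with mean and SD (n = 5). All were called; the groups overlap for GPI alone, at 256 to 479 CPM against 463 to 1112 CPM.

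In energy metabolism single genes were called. AMPD3, AMP deaminase of the purine cycle, was at 42.7, 41.9, 64.5, 58.8 and 69.8 CPM in the younger and 111, 192, 86.0, 174 and 133 CPM in the older libraries. All older libraries were higher (log2 change 1.33 ± 0.24, adjusted p = 0.0120), and it was chosen after its values were seen. In glycolysis and glycogen 1 of 49 genes rose and 1 fell (4.08%, median 0.00). GPI (ENSDARG00000103826), glucose-6-phosphate isomerase, rose from 307, 287, 256, 479 and 447 CPM to 463, 937, 735, 1112 and 679 CPM (log2 change 1.14 ± 0.26, adjusted p = 0.0412), with 3y_control 1 under the highest younger library. PFKFB2, a bifunctional enzyme that sets the glycolytic activator fructose 2,6-bisphosphate, fell from 27.5, 37.5, 60.15, 53.8 and 32.6 CPM to 24.3, 13.3, 14.8, 16.9 and 12.8 CPM (log2 change -1.36 ± 0.27, adjusted p = 0.0166). GAMT, which makes creatine and was chosen after its values were seen, rose with overlapping groups (log2 change 0.999 ± 0.24, adjusted p = 0.0464). tdh2, a threonine dehydrogenase, rose without overlap (log2 change 2.30 ± 0.44, adjusted p = 0.0161).

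Genes of insulin and mTOR signalling that lie outside the growth list, chosen by the size of their change or after their values were seen, moved both ways. DEPTOR, an inhibitor bound to mTOR, read 14.001, 6.75, 12.4, 16.3 and 18.6 CPM and 7.54, 4.98, 5.12, 4.96 and 3.82 CPM (log2 change -1.36 ± 0.26, adjusted p = 0.0161), with 1y_control 2 under the highest older library. PIK3R3, a regulatory subunit of PI3-kinase, fell from 11.8 to 46.0 CPM to 5.84 to 8.76 CPM (log2 change -1.68 ± 0.38, adjusted p = 0.0382). sesn4, a sestrin gene, rose (log2 change 1.11 ± 0.23, adjusted p = 0.0205). Outside this signalling but chosen in the same way, the small phosphatase CTDSP2 rose from 10.5 to 17.7 CPM to 24.3 to 34.9 CPM (log2 change 1.04 ± 0.21, adjusted p = 0.0193).

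Several called genes code for carriers of the inner mitochondrial membrane. That family was not a list, so no share of calls among its tested members stands beside the 1.19% of all genes. Of the genes below, SLC25A32, SLC25A33 and NRF1 follow the naming rule and the others were chosen after their values were seen. SLC25A32, which brings folate into the mitochondrion, was at 2.98, 6.33, 3.64, 7.24 and 4.68 CPM in the younger and 20.8, 22.5, 18.3, 28.4 and 20.7 CPM in the older libraries (log2 change 2.15 ± 0.35, adjusted p = 0.00887). SLC25A33, a pyrimidine nucleotide carrier, went the other way, at 53.4, 30.5, 39.8, 67.0 and 88.7 CPM and 15.2, 10.8, 7.92, 23.9 and 6.80 CPM (log2 change -2.11 ± 0.41, adjusted p = 0.0169). Neither had overlapping groups. slc25a51b, named after a carrier of NAD in mammals, fell (log2 change -0.95 ± 0.19, adjusted p = 0.0191), and SLC25A36, also a nucleotide carrier, rose (log2 change 0.81 ± 0.19, adjusted p = 0.0461). COQ10B, which binds coenzyme Q, fell from 209, 140.3, 197, 324 and 273 CPM to 90.2, 88.0, 57.3, 105 and 104 CPM (log2 change -1.36 ± 0.27, adjusted p = 0.0191). perm1a, named after a muscle regulator of mitochondrial genes, fell from 82.0 to 98.6 CPM to 32.4 to 67.6 CPM (log2 change -0.93 ± 0.22, adjusted p = 0.0461). Of 39 genes of mitochondrial biogenesis and quality the only call was NRF1, nuclear respiratory factor 1, which rose from 3.60 to 4.50 CPM to 5.42 to 7.24 CPM (log2 change 0.63 ± 0.13, adjusted p = 0.0177).

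No respiratory chain gene was called by edgeR in resting fish, neither of 86 nuclear ones (median -0.05, with 32 above and 54 under 0) nor of 13 mitochondrially encoded ones (median -0.18). None of 29 genes of the citric acid cycle was called (median -0.09). At an unadjusted p under 0.05 these lists had 2, 0 and 3 genes; DESeq2 called 0, 0 and 1, and voom 1, 0 and 0. Without 1y_control 4 the medians were 0.03, -0.11 and 0.02, and without 3y_control 1 those of the nuclear and mitochondrially encoded genes were -0.19 and -0.32. In the citric acid cycle list PDK2 (ENSDARG00000020876), which shuts down pyruvate dehydrogenase by phosphorylation, had 43.2 to 81.7 CPM at 1 year and 99.5 to 143 CPM at 3 years without passing (log2 change 1.11 ± 0.33, adjusted p = 0.104). In fatty acid oxidation 40 of 43 genes had a change under 0 (median -0.38) and edgeR called none. An unadjusted p under 0.05 was reached by 8 of the 43, beside 2701 of all 17025 genes tested. DESeq2 called 0 and voom 4 lower. The median was -0.19 without 1y_control 4, and without 3y_control 1 edgeR called 2 genes lower. In exercised fish, the same age difference had 66 of 86 nuclear respiratory genes, 13 of 13 mitochondrially encoded genes and 28 of 43 fatty acid oxidation genes called lower (10.1% of all genes tested were), with medians of -0.86, -0.92 and -1.15. The test of the difference between the states passed for 3, 1 and 0 genes of these lists in edgeR, with 72, 11 and 26 at an unadjusted p under 0.05, and for 25, 3 and 8 in DESeq2.

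Iron and one-carbon genes changed singly. tfr1b, a transferrin receptor for iron uptake, was at 43.9, 39.8, 34.8, 33.0 and 34.2 CPM in the younger and 14.2, 9.67, 16.6, 15.2 and 14.8 CPM in the older libraries, with little spread in either group (log2 change -1.398 ± 0.16, adjusted p = 0.000212). In exercised fish it changed by -1.32 ± 0.16 (adjusted p = 8.96e-05). ABCB10, a mitochondrial transporter tied to haem synthesis, fell (log2 change -0.72 ± 0.15, adjusted p = 0.0248) and SLC48A1, a haem transporter, rose (log2 change 0.64 ± 0.15, adjusted p = 0.0417); these 3 were chosen after their values were seen. Among 57 genes of polyamine and one-carbon metabolism 2 rose and 2 fell (7.02%, median -0.30). mthfd2, of the mitochondrial folate pathway, fell from 36.3 to 56.1 CPM to 15.7 to 25.1 CPM (log2 change -1.08 ± 0.25, adjusted p = 0.0415). Its relative mthfd2l, off the list and chosen after its values were seen, also fell, at 0.237 to 0.647 CPM and 0.0461 to 0.0962 CPM (log2 change -2.397 ± 0.51, adjusted p = 0.0269). oaz2b, an antizyme that limits polyamines, read 15.9, 5.80, 23.4, 26.7 and 11.3 CPM and 5.02, 6.03, 3.85, 1.204 and 1.16 CPM with overlapping groups (log2 change -2.26 ± 0.50, adjusted p = 0.0338). GLS2, a glutaminase, rose from 14.1 to 41.7 CPM to 46.2 to 86.5 CPM (log2 change 1.097 ± 0.25, adjusted p = 0.0412), beside GAMT.

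AMPD3, DEPTOR, SLC25A32 and tfr1b were called in each of the 10 fits without 1 library. SLC25A33 was lost without 3y_control 2 (log2 changes -2.45 to -1.91 over the 10 fits), PFKFB2 without 1y_control 3 or 3y_control 2 (-1.55 to -1.201), COQ10B without 1y_control 4 or 3y_control 2 (-1.49 to -1.204), slc25a51b without 1y_control 4 or 3y_control 4 (-1.03 to -0.86) and NRF1 without 1y_control 1 or 1y_control 4 (0.57 to 0.68). sesn4 was lost without 1y_control 1, 1y_control 5 or 3y_control 2 (0.95 to 1.23), CTDSP2 without 1y_control 1, 1y_control 3, 1y_control 4 or 3y_control 2 (0.95 to 1.11) and tdh2 without 1y_control 1 (1.96 to 2.47). The remaining calls were lost in most fits: GPI was called only without 1y_control 4 or 3y_control 1 (0.99 to 1.29), GAMT without 1y_control 2 or 3y_control 1 (0.83 to 1.24), PIK3R3 without 1y_control 2, 1y_control 3 or 3y_control 1 (-1.85 to -1.32) and GLS2 without 1y_control 2, 1y_control 4, 3y_control 1 or 3y_control 3 (0.93 to 1.28). mthfd2l was called without 1y_control 2, 1y_control 5 or 3y_control 1 (-2.56 to -2.18), oaz2b without 1y_control 2, 1y_control 5, 3y_control 1 or 3y_control 2 (-2.56 to -2.03), ABCB10 without 1y_control 2, 1y_control 5, 3y_control 1 or 3y_control 4 (-0.78 to -0.67) and SLC48A1 without 1y_control 5, 3y_control 1 or 3y_control 5 (0.57 to 0.69). SLC25A36, perm1a and mthfd2 were called only without 3y_control 1 (0.69 to 0.87, -1.09 to -0.82 and -1.17 to -0.95).

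Vessel genes were the next list by share of calls, with 1 of 48 higher and 3 lower (8.33%, median 0.00). kdrl, a VEGF receptor of endothelium in zebrafish, was at 56.8, 50.2, 58.3, 80.9 and 55.2 CPM in the younger and 35.8, 33.0, 33.3, 41.2 and 32.9 CPM in the older libraries (log2 change -0.77 ± 0.18, adjusted p = 0.0412). rasip1, which shapes endothelial tubes, fell from 6.99 to 8.43 CPM to 3.80 to 5.998 CPM (log2 change -0.70 ± 0.14, adjusted p = 0.0193). HIF1A (ENSDARG00000034293), a subunit of the hypoxia-inducible factor, fell from 76.6 to 92.8 CPM to 52.5 to 68.1 CPM (log2 change -0.51 ± 0.11, adjusted p = 0.0238). The member that rose was plvapb, of the diaphragms of fenestrated endothelium, at 23.1, 39.1, 24.9, 18.99 and 23.4 CPM and 42.6, 72.2, 80.9, 62.2 and 56.8 CPM (log2 change 1.28 ± 0.30, adjusted p = 0.0445). The 4 genes had no overlap between groups. The summed vessel list covered 654 to 905 CPM at 1 year and 675 to 924 CPM at 3 years. In fits without 1 library, kdrl was called only without 1y_control 2 or 3y_control 1 and plvapb only without 1y_control 2 or 3y_control 1, while rasip1 and HIF1A were lost without 1y_control 1, 1y_control 3, 3y_control 2 or 3y_control 5. Without 1y_control 1, 1y_control 3 or 3y_control 2 no vessel gene was called, and with unscaled totals plvapb was the only one. Log2 changes over the 10 fits were -0.83 to -0.65 for kdrl, 1.18 to 1.48 for plvapb, -0.79 to -0.63 for rasip1 and -0.56 to -0.46 for HIF1A. The guidance cue sema3aa, chosen like plvapb after its values were seen, fell with overlapping groups (log2 change -0.77 ± 0.18, adjusted p = 0.0461) and was called only without 1y_control 5, 3y_control 1 or 3y_control 5 (-0.90 to -0.64).

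Collagens had lower values at 3 years without a single call by edgeR. Over all 17025 genes tested 2701 had an unadjusted p under 0.05, and DESeq2 and voom called 720 and 676. Among the 43 genes of the collagen list these counts were 17, 8 and 12, all lower. The list's summed level was 3401 to 6013 CPM at 1 year and 1230 to 3940 CPM at 3 years, and 38 of 43 genes had a change under 0 (median -0.63; between -0.69 and -0.39 over the fits without 1 library, nearest 0 without 1y_control 5). Lowest in adjusted p were the genes of microfibrillar collagen VI, col6a1, at 141, 106, 136, 114 and 103 CPM and 92.9, 41.3, 59.19, 36.3 and 71.9 CPM (log2 change -0.99 ± 0.27, adjusted p = 0.0769), and COL6A2 (log2 change -0.92 ± 0.25, adjusted p = 0.0808). For both no older library reached a younger one. The fibrillar type I genes were more uneven: col1a1a read 1750.2, 879, 987, 865 and 695 CPM at 1 year and 956, 159, 267, 117 and 686 CPM at 3 years, with 3y_control 1 inside the younger range and 3y_control 5 just under it (log2 change -1.24 ± 0.48, adjusted p = 0.206), and COL1A2 ran alongside (log2 change -1.05 ± 0.44, adjusted p = 0.239). 3y_control 1 also had the highest sum of cartilage and bone markers among older fish (707 CPM). Without it 8 collagen genes were called lower, in a fit that called 403 of all genes, and without any other single library none was. Of 84 genes of matrix assembly and turnover 1 was called (1.19%, the same share as of all genes tested). This gene, loxl2a, a lysyl oxidase-like enzyme, fell from 11.6, 10.3, 9.45, 27.5 and 42.8 CPM to 5.02, 7.91, 4.62, 4.56 and 8.12 CPM (log2 change -1.75 ± 0.40, adjusted p = 0.0412); it was highest in 1y_control 4 and 1y_control 5, and it was called only without 1y_control 2 or 1y_control 3 (-1.93 to -1.2999). The crosslinking enzyme TGM2, chosen after its values were seen, fell with overlapping groups (log2 change -1.098 ± 0.25, adjusted p = 0.0362) and was called only without 1y_control 2, 1y_control 5 or 3y_control 1 (-1.301 to -0.95).

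Immune lists held 0 or 1 edgeR call each at rest, beside 1.19% of all genes tested. Called were 1 of 37 interferon and antiviral genes (2.7%, mavs) and 1 of 41 antigen presentation genes (2.44%, mhc1zda). So were 1 of 24 complement and acute phase genes (4.17%, cfp) and 1 of 47 inflammation and NF-kB genes (2.13%, ccl34b.4). None of 53 leukocyte genes was called by edgeR (median 0.23, with 38 above and 15 under 0, the lowest at -1.82). At an unadjusted p under 0.05, 5 were higher and 1 lower. DESeq2 called 0 and voom 1, higher. Without 1y_control 5 the median was 0.44 and edgeR called 1 gene, higher. MFAP4 (ENSDARG00000090783), a macrophage gene in zebrafish, was at 0.551 to 0.661 CPM at 1 year and 1.101 to 2.28 CPM at 3 years (log2 change 1.34 ± 0.43, adjusted p = 0.135), and SPI1, a factor of myeloid cells, at 1.82 to 3.99 and 2.2001 to 6.40 CPM (log2 change 0.72 ± 0.26, adjusted p = 0.179). The highest summed leukocyte level, 853 CPM, was in the younger library 1y_control 5, which also led in epidermis markers. mavs, the mitochondrial adaptor of viral RNA sensing, was at 30.4, 36.4, 34.2, 25.5 and 28.3 CPM in the younger and 13.5, 20.4, 10.9, 15.6 and 14.5 CPM in the older libraries. No older library reached a younger one (log2 change -1.05 ± 0.18, adjusted p = 0.0116), and its call held in each of 10 fits without 1 library. Of genes that rose, the chemokine ccl34b.4 was at 1.39, 2.80, 1.59, 0.743 and 3.11 CPM and 6.4995, 11.7, 3.54, 5.42 and 5.56 CPM (log2 change 1.76 ± 0.42, adjusted p = 0.0460), and cfp, properdin of the complement system, at 1.64 to 3.62 and 4.15 to 8.59 CPM (log2 change 1.01 ± 0.24, adjusted p = 0.0461). ccl34b.4 was called only without 1y_control 2, 1y_control 5, 3y_control 1 or 3y_control 3 (1.45 to 1.99) and cfp only without 1y_control 2 or 3y_control 1 (0.83 to 1.11). gzm3.4, a granzyme gene chosen after its values were seen, was at 0.0480 to 0.129 and 0.217 to 0.392 CPM (log2 change 1.65 ± 0.39, adjusted p = 0.0461) and was called in 0 of the 10 fits. mhc1zda, an MHC class I gene, was at 9.96, 14.4, 11.0, 10.4 and 54.3 CPM in older libraries against 4.69 to 11.07 CPM at 1 year (log2 change 1.66 ± 0.39, adjusted p = 0.0452). Without 3y_control 5 its change was 0.85 and not called, and the call was kept only without 1y_control 2, 3y_control 1, 3y_control 3 or 3y_control 4. In exercised fish 26 of 53 leukocyte genes were called higher with age (median 1.03; 7.59% of all genes tested were called higher there), and no leukocyte gene passed the edgeR test of the difference between the states (16 at an unadjusted p under 0.05, and 2 called by DESeq2).

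Of the genes that follow, only PHLDA3 and cdkn1a belong to a list, that of senescence and p53; YPEL3, NFE2L1, MXD3 and TRIB2 were chosen after their values were seen. nupr1a, a small stress-induced regulator, was at 7.502, 8.24, 8.02, 12.01 and 8.91 CPM in the younger and 28.4, 43.2, 19.1, 22.2 and 39.3 CPM in the older libraries (log2 change 1.77 ± 0.36, adjusted p = 0.0205). YPEL3, a p53 target in mammals, was at 5.002, 6.92, 5.51, 6.26 and 3.86 CPM and 13.8, 18.7, 15.9, 12.8 and 17.7 CPM (log2 change 1.52 ± 0.29, adjusted p = 0.0161). Both had non-overlapping groups. PHLDA3, also a p53 target and a brake on AKT, rose from 3.33 to 6.51 CPM to 8.44 to 13.4 CPM (log2 change 1.15 ± 0.27, adjusted p = 0.0424), the only call among 46 genes of senescence and p53 (2.17%, median -0.01). At an unadjusted p under 0.05, 2 of the 46 were higher and 4 lower. DESeq2 called 2 higher and 2 lower, and voom 1 higher and 1 lower. cdkn1a, the p21 gene of that list, was at 0.309 to 0.527 CPM and 0.396 to 1.203 CPM (log2 change 0.68 ± 0.39, adjusted p = 0.409). NFE2L1, which drives proteasome genes, rose (log2 change 1.46 ± 0.34, adjusted p = 0.0416). None of 45 proteasome genes was called by edgeR, DESeq2 or voom, and none had an unadjusted p under 0.05. Of the 45, 42 had a change above 0 and 3 under 0, beside 8633 of all 17025 genes tested above 0. The list's median was 0.19, with 0.07 without 3y_control 4 and 0.29 without 3y_control 3. MXD3, a partner of MAX that opposes MYC, rose from 0.367 to 0.767 CPM to 1.39 to 3.24 CPM (log2 change 2.09 ± 0.35, adjusted p = 0.00964), and TRIB2, a pseudokinase, fell from 3.23 to 9.27 CPM to 1.76 to 2.64 CPM (log2 change -1.45 ± 0.26, adjusted p = 0.0116). The calls of MXD3 and TRIB2 held in each of 10 fits, that of YPEL3 in all but the one without 1y_control 1 (over the 10 fits 1.399 to 1.62), and that of nupr1a was lost without 1y_control 1, 1y_control 3, 3y_control 2 or 3y_control 5 (1.61 to 1.90). PHLDA3 was called only without 1y_control 5 (1.04 to 1.26) and NFE2L1 only without 3y_control 1 or 3y_control 3 (1.04 to 1.61).

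Single genes of DNA repair, chromatin, nuclear transport and ribosome assembly rose, most of them chosen after their values were seen. Those outside the lists have no share of calls to set beside the 1.19% of all genes tested. In the list of DNA repair and chromatin 1 of 49 genes was called (2.04%, median 0.11): ogg1, which removes oxidised guanine, at 0.220 to 0.668 CPM and 0.622 to 1.299 CPM (log2 change 1.35 ± 0.32, adjusted p = 0.0449). Genes outside the lists, chosen after their values were seen, were the polycomb members BMI1 (log2 change 0.89 ± 0.21, adjusted p = 0.0417), EED (log2 change 0.96 ± 0.23, adjusted p = 0.0461) and scmh1 (log2 change 0.73 ± 0.17, adjusted p = 0.0461), and, of nuclear transport, IPO5 (log2 change 1.01 ± 0.23, adjusted p = 0.0417), RANGAP1 (log2 change 0.75 ± 0.18, adjusted p = 0.0466) and NUP188 (log2 change 0.57 ± 0.14, adjusted p = 0.0461). For BMI1 the 5 younger libraries read 2.94, 3.33, 1.96, 2.21 and 1.73 CPM and the 5 older ones 4.75, 3.68, 5.34, 4.12 and 4.72 CPM, without overlap. UTP4, of the small-subunit processome, rose from 6.75, 10.8, 7.496, 7.82 and 8.75 CPM to 13.8, 18.1, 12.1, 19.2 and 14.9 CPM (log2 change 0.91 ± 0.18, adjusted p = 0.0200) as the only call among 71 genes of ribosome biogenesis and translation (1.41%, median 0.14). Other assembly factors, chosen after their values were seen, were tsr2 (log2 change 1.14 ± 0.22, adjusted p = 0.0161), GTPBP4 (log2 change 0.71 ± 0.17, adjusted p = 0.0461), nop53 (log2 change 0.64 ± 0.15, adjusted p = 0.0459) and DHX37 (log2 change 0.69 ± 0.16, adjusted p = 0.0451). Members of both lists also went the other way. At an unadjusted p under 0.05, 9 genes of DNA repair and chromatin were higher and 2 lower. DESeq2 called 3 higher and 1 lower, and voom 4 and 1. For ribosome biogenesis and translation these counts were 22 and 4, 5 and 3, and 7 and 3. With RLE factors or unscaled totals edgeR called 1 gene of that list higher and 1 lower. Without 1y_control 1 or 1y_control 3 none of the 12 called genes named above was called. tsr2 was lost in no other fit (1.02 to 1.22), and UTP4 was also lost without 1y_control 4, 3y_control 2 or 3y_control 4 (0.83 to 1.02). IPO5 was called without 1y_control 2, 3y_control 1, 3y_control 3 or 3y_control 5 (0.72 to 1.12) and the other 9 in only 2 of the 10 fits each.

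Cytosolic ribosomal protein genes nearly all had changes above 0, with no gene called by edgeR (13 at an unadjusted p under 0.05, 0 called by DESeq2 and 1 by voom, lower, as by edgeR without 3y_control 1). That unadjusted p was reached by 2701 of all 17025 genes tested, a share near that of the 13 of 81 here. A change above 0 was seen in 80 of 81, with a median of 0.36, against 8633 of 17025 genes and a median of 0.01 overall. RPL10 was at 344, 438, 354, 375 and 352 CPM and 514, 463, 520.3, 525 and 550.1 CPM (log2 change 0.46 ± 0.19, adjusted p = 0.226), and RPL15 at 301 to 380.1 and 378 to 492 CPM (log2 change 0.42 ± 0.17, adjusted p = 0.224). The signs of the medians of the ribosomal protein, collagen, fatty acid oxidation and clock lists were the same with TMM, with DESeq2 and with unscaled library totals. The median of all genes was 0.0056, -0.0223 and -0.0247 under these. Shifts of that size could hardly turn the sign of these list medians, so the agreement is no check of the scaling. Among genes of DNA replication and the cell cycle edgeR and DESeq2 called none and voom 1. An unadjusted p under 0.05 was reached by 8, a share also near that of all genes tested. The list had a median of -0.36, with 45 of 57 under 0. That median was -0.65 without 3y_control 1 and -0.20 without 1y_control 5.

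**Figure D4:**
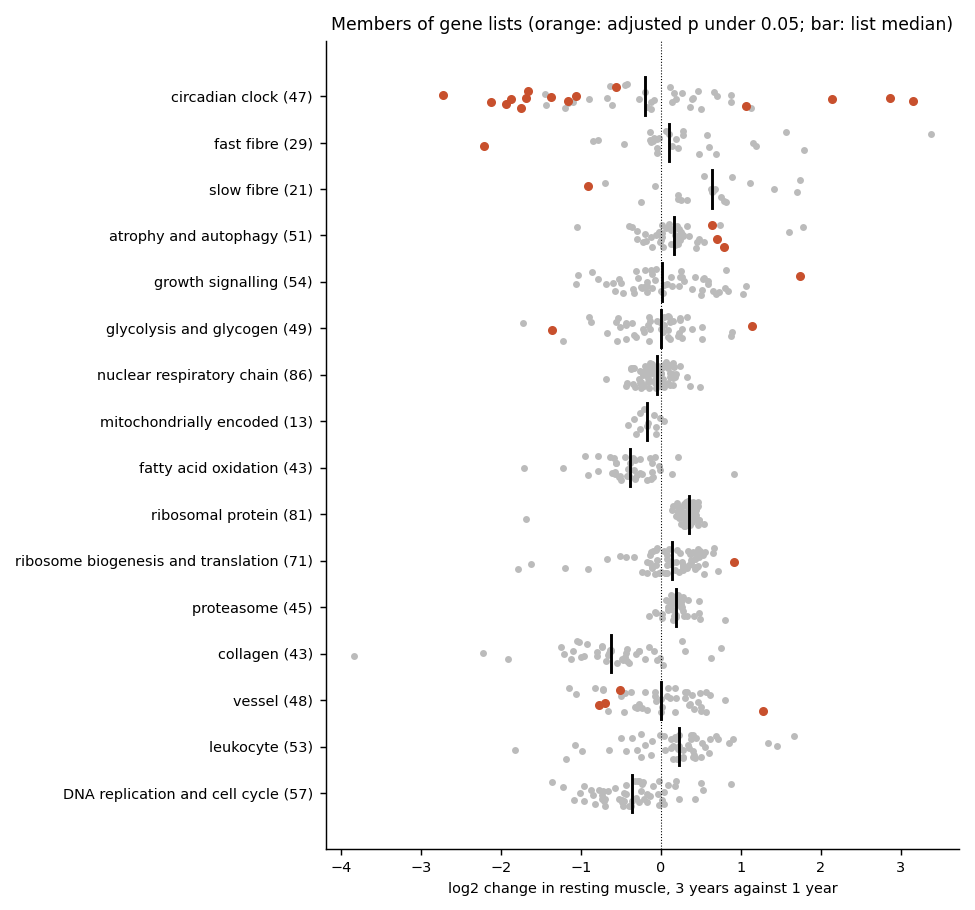
Log2 change with age in resting muscle of the tested members of 16 gene lists, with the number tested in brackets; orange points had an adjusted p under 0.05, and the black bar is the list's median. Orange points gather in the clock list (15 of 47), and the ribosomal protein and collagen lists have medians of 0.36 and -0.63 with no orange point.

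Nerve-related genes were among the lower calls, beside nerve markers that differed between libraries. NCAM1, an adhesion molecule of nerve and of immature or denervated muscle, was at 2.56, 2.29, 2.02, 2.01 and 1.75 CPM in the younger and 0.991, 0.683, 0.794, 0.648 and 0.527 CPM in the older libraries (log2 change -1.54 ± 0.27, adjusted p = 0.0111). It was the only edgeR call among 39 genes of nerve and glia (2.56%, median -1.11, or -0.42 without 1y_control 4). Of the 39, 7 had a change above 0 and 32 under 0. At an unadjusted p under 0.05, 2 were higher and 10 lower. DESeq2 called 1 higher and 2 lower, and voom 3 lower. NCAM1 was also the only call among 31 genes of the neuromuscular junction and denervation (3.23%, median -0.06). The same held among 39 genes of myogenic and satellite cells (2.56%, median -0.06). LINGO2, a neuronal membrane protein, read 0.438, 0.353, 0.428, 0.456 and 0.173 CPM and 0.0230, 0.0440, 0, 0.0463 and 0.0264 CPM (log2 change -3.57 ± 0.64, adjusted p = 0.0120), and GNG13, a G protein subunit, 3.52, 2.76, 2.85, 4.46 and 3.90 CPM and 1.64, 1.32, 0.746, 1.16 and 1.48 CPM (log2 change -1.46 ± 0.24, adjusted p = 0.00945). Neither these nor NCAM1 had overlapping groups. Of the libraries with the highest nerve scores, 1y_control 1 was highest for NCAM1 and 1y_control 4 for LINGO2 and GNG13. For NCAM1, 1y_control 4 (2.01 CPM) was under 1y_control 1, 1y_control 2 and 1y_control 3. For GNG13, 1y_control 1 (3.52 CPM) was under 1y_control 4 and 1y_control 5. Leaving out either 1y_control 1 or 1y_control 4 kept the calls. Without both, which leaves 3 younger libraries, the changes were -1.501 for NCAM1, -3.37 for LINGO2 and -1.36 for GNG13, with adjusted p of 0.0919, 0.100 and 0.0886. DOC2B, a calcium sensor of vesicle fusion chosen like LINGO2 and DDC after its values were seen, fell from 1.28 to 2.13 CPM to 0.501 to 0.969 CPM (log2 change -1.23 ± 0.23, adjusted p = 0.0123) and was also called in each of 10 fits. DDC, a decarboxylase for amine transmitters, was at 0.219, 0.463, 0.0918, 0.360 and 7.66 CPM at 1 year and 0.0241 to 0.139 CPM at 3 years (log2 change -4.49 ± 1.09, adjusted p = 0.0495). It was highest in 1y_control 5, the library with 7331 CPM of epidermis markers; without it the change was -1.91 and not called, and the call was kept only without 1y_control 2. Among 42 epidermis genes edgeR called none (10 at an unadjusted p under 0.05, 1 called by DESeq2 and 0 by voom), and their median of -1.62 was 0.92 without that library.

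Phosphate handling and a few further genes complete the named calls. SLC20A1, a phosphate importer, was at 29.3, 23.9, 23.2, 32.3 and 46.0 CPM in the younger and 13.5, 4.45, 8.25, 11.8 and 9.26 CPM in the older libraries (log2 change -1.71 ± 0.32, adjusted p = 0.0142). PHEX, a peptidase of phosphate balance known from bone, was at 14.9, 13.7, 11.2, 10.7 and 11.7 CPM and 22.4, 23.7, 23.7, 20.1 and 26.9 CPM (log2 change 0.91 ± 0.17, adjusted p = 0.0123). Both were called in each of 10 fits and had no overlap, and PHEX was the only call among 21 cartilage and bone genes (4.76%). mtus1a, named after a microtubule-associated protein, rose from 9.12 to 15.2 CPM to 28.5 to 48.6 CPM (log2 change 1.67 ± 0.34, adjusted p = 0.0193), and its call was lost without 1y_control 1, 1y_control 3, 1y_control 5 or 3y_control 2 (1.55 to 1.77). A further 3 genes have no descriptive name. zgc:194659 read 1.90, 2.93, 2.81, 2.35 and 1.98 CPM and 6.18, 24.7, 12.99, 15.6 and 14.3 CPM (log2 change 2.62 ± 0.31, adjusted p = 0.000334). si:dkey-18a10.3 read 6.90, 2.07, 4.86, 2.997 and 4.08 CPM and 0.300, 0.484, 0.144, 0.208 and 0.185 CPM (log2 change -3.96 ± 0.52, adjusted p = 0.00102), and si:ch211-132b12.7 6.23 to 12.6 CPM and 1.002 to 3.87 CPM (log2 change -2.21 ± 0.31, adjusted p = 0.00164). They were chosen after their values were seen and were called in each of 10 fits.

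The age difference at rest was then set against that among exercised fish. With exercise 3010 genes were called (17.7% of genes tested), 1293 higher (7.59%) and 1717 lower (10.1%). Markers of other organs moved with that contrast. Exocrine pancreas genes summed to 43.1 to 272 CPM in the 5 exercised libraries of 1 year and to 3.67 to 28.9 CPM in the other 15, and 17 of 21 were called lower at 3 years with exercise (median -3.84). Liver genes summed to 439.9 to 1629 CPM in the 5 exercised libraries of 1 year and 259.6 to 499.7 CPM in the other 15, and 34 of 37 were called lower (median -4.08). Their part in the other differences with exercise was not tested. At rest edgeR called no gene of either list. There 20 of 21 pancreas genes had a change above 0 (median 1.16, with 2 called higher by DESeq2). Liver genes had 35 of 37 under 0 (median -1.03, or -0.35 without 1y_control 1 and -2.66 without 3y_control 2). Of the 203 genes called at rest, 183 had the same direction in exercised fish, and 116 were called there in that direction (57.1% of the 203, and 3.85% of the 3010), 58 of them higher and 58 lower. Called the opposite way were GPI and si:ch73-141c7.1. The difference between the 2 age effects was itself called for 57 of all genes tested (0.335%), among them 4 of the 203. Of the 57, 12 were exocrine pancreas genes and none was a liver gene (22 of 37 at an unadjusted p under 0.05, and 1 called with DESeq2). GPI rose by 1.14 ± 0.26 at rest and changed by -0.87 ± 0.26 with exercise, a difference of 2.01 ± 0.37 (adjusted p = 0.0297). FOXO4 rose at rest and had -0.21 ± 0.14 with exercise (difference 0.998 ± 0.20, adjusted p = 0.0407). DOC2B had -1.23 ± 0.23 and 0.47 ± 0.22 (difference -1.71 ± 0.32, 0.0297). si:ch73-141c7.1, which has no descriptive name and was chosen after its values were seen, fell at rest from 36.6, 19.1, 29.6, 13.3 and 17.2 CPM to 11.5, 8.06, 8.66, 9.56 and 11.7 CPM (log2 change -1.23 ± 0.27, adjusted p = 0.0293) and rose by 1.43 ± 0.27 with exercise (difference -2.66 ± 0.38, 0.00785). The difference for si:ch73-141c7.1 was called in all 10 fits without 1 library, those for GPI and DOC2B in 5 each, lost without any of 1y_control 1, 1y_control 2, 1y_control 3, 3y_control 3 and 3y_control 5, and that for FOXO4 in 3, without 1y_control 4, 3y_control 1 or 3y_control 4. With unscaled totals the differences for GPI, DOC2B and FOXO4 were not called, and with RLE factors that for FOXO4 was not. The call of si:ch73-141c7.1 at rest was kept only without 1y_control 2, 1y_control 4, 1y_control 5 or 3y_control 1 (-1.37 to -0.999). The count of 57 was 31 with the RLE factors and 4 with unscaled totals, and 407 with DESeq2. It was 4 or 5 without any of 1y_control 1, 1y_control 2, 1y_control 3, 3y_control 3 and 3y_control 5, 163 without 1y_control 4, and 28 and 26 without 1y_control 5 and 3y_control 1.

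**Figure D5:**
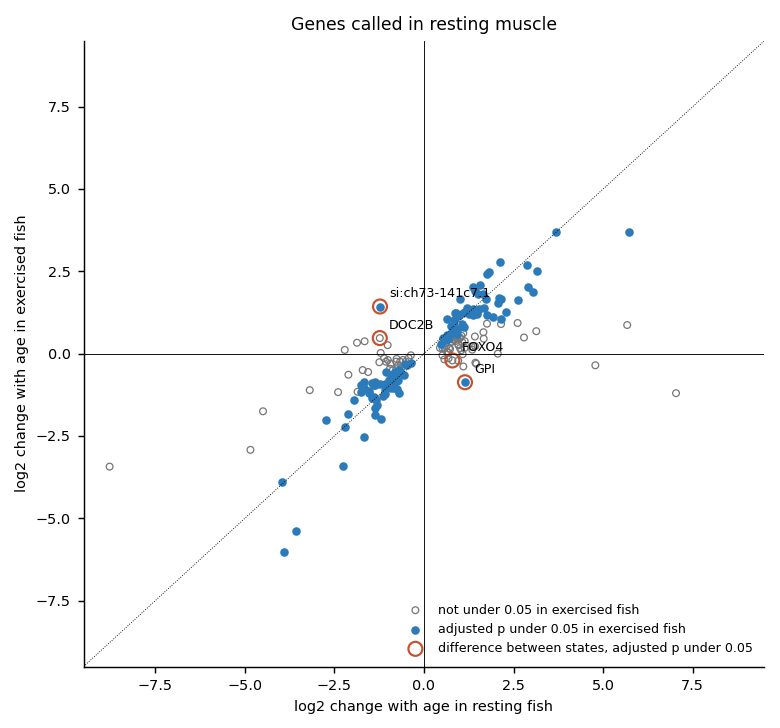
Log2 change with age in exercised fish (vertical) against that in resting fish (horizontal) for the 203 genes called at rest; filled points were also called in exercised fish, and orange rings mark the 4 genes whose age effect differed between the states. The dotted line is equality, and 183 of 203 points lie in the quadrants of equal sign.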

How the data were processed

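The authors deposited unnormalised read counts, 1 whole number for each Ensembl gene and library, and the library totals given above are the depth. The submitters' processing notes name STAR 2.4.1d, featureCounts 1.4.6-p4, bcl2fastq 1.8.4 and the build GRCz10; strand setting and the handling of reads shared by genes are not given in the sources used here. The kit does not mark strand, so overlapping antisense genes cannot be told apart. Near-identical paralogues can share reads. A deposited table named as RPKM was not used, since each row appears scaled by the total of some library in rotation, not by that of its own column.

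Groups follow the labels of age and perturbation. Of 32105 genes, 17025 passed filterByExpr of edgeR 4.0.16 (R 4.3.3). Library sizes were scaled by TMM, and 4 group means were fitted to the 20 libraries with the robust quasi-likelihood F-test, adjusted by Benjamini-Hochberg over all genes tested. The contrast is 3y_control minus 1y_control; errors of log2 changes are SE (n = 5 per group), and CPM use TMM-scaled sizes. Library measures were compared by two-sided exact permutation (252 orderings, smallest p 0.00794). No 2 replicates agreed within counting error (chi-square per degree of freedom 59.7 to 222 over 20 pairs). The fit was tested on simulated data. Symbols came from an annotation table (26269 identifiers matched).

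Members and the 44 gene lists were chosen with earlier results of these data known. Genes were named among those called that average 1 or more on the log2 CPM scale and carry a proper symbol: the 12 highest and 12 lowest by change, up to 3 called members of each list, the 2 with the smallest p where a list had none, and a panel; 54 of 112 named were chosen after their values were seen. Lists are described by counts and medians. Alternatives were RLE factors, unscaled totals, DESeq2 1.42.0, no filter, at least 1 CPM in 5 libraries, voom with limma 3.58.1, the 10 libraries alone, and fits without single libraries or without both libraries highest in nerve score.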

Additional observations from a re-analysis of the deposited data

Results flagged for a closer look

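In 14 of the 224 sets of gene and age group examined, 1 of the 5 libraries lay far from the others on the log2 scale; chance gives about 1 in 20. Libraries standing high at 1 year were 1y_control 1 for mthfd2 (56.1 CPM, others 36.3 to 40.9), 1y_control 3 for FST (9.03, others 5.84 to 6.52), 1y_control 4 for ASB15 (3.72, others 0.986 to 1.19), 1y_control 2 for mhc1zda (11.07, others 4.69 to 5.54) and 1y_control 5 for ciartb (2.87, others 1.41 to 1.45). Standing low were 1y_control 5 for LINGO2 (0.173 CPM, others 0.353 to 0.456) and 1y_control 1 for NFE2L1 (6.04, others 10.4 to 12.1). At 3 years 3y_control 2 was high for ciarta (1.01 CPM, others 0.738 to 0.794) and low for tfr1b (9.67, others 14.2 to 16.6). 3y_control 3 was low for COQ10B (57.3 CPM, others 88.0 to 105) and 3y_control 5 low for SLC48A1 (5.64, others 6.83 to 7.18). 3y_control 5 was high for mhc1zda (54.3 CPM, others 9.96 to 14.4), 3y_control 1 for TGM2 (11.3, others 5.99 to 6.90) and 3y_control 4 for cry5 (0.533, others 0.361 to 0.396). The TMM factor of 3y_control 3 was 1.17, against 1.05 to 1.06 in the other older libraries.

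The age effect differed between resting and exercised fish, by the test of the difference itself, for 5 genes named here. The differences (rest minus exercised, log2) were 0.998 ± 0.20 for FOXO4, 2.01 ± 0.37 for GPI, -1.71 ± 0.32 for DOC2B, -2.66 ± 0.38 for si:ch73-141c7.1 and 2.203 ± 0.46 for PDK2 (ENSDARG00000020876, adjusted p = 0.0457), the last without a call at rest; that of PDK2 was called in 1 of 10 fits without 1 library, without 1y_control 4, and was lost with RLE factors and with unscaled totals.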

How the results depend on the processing

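No paired analysis was possible because the labels carry no replicate numbers and link no fish across ages. The 203 calls at rest (112 higher, 91 lower) became 720 (342 and 378) with the Wald test of DESeq2, 676 (343 and 333) with voom and sample weights, 113 (53 and 60) with no filter, 94 (44 and 50) with only the 10 libraries compared and 9 (1 and 8) without both libraries highest in nerve score. With unscaled totals 73 genes were higher, and without the library highest in epidermis score 61. Leaving out 1 library at a time gave 56 to 403 calls, 21 to 211 higher and 35 to 192 lower. The 15 clock calls became 4 without both libraries highest in nerve score and 10 with only the 10 libraries compared. They were 12 to 17 without 1 library, in fits that kept the 10 exercised libraries. The 57 differences between rest and exercise became 31 with RLE factors, 4 with unscaled totals, 407 with DESeq2 and 4 to 163 without 1 library. Library measures without 1 library ranged, as 3 years minus 1 year, from -2.39 to -0.77 points for mitochondrially encoded genes, 0.877 to 2.11 points for the 10 highest genes, -0.0468 to 0.0119 for the TMM factor, -2873000.0 to 1469690.0 for total counts and -410 to 64.6 for genes detected. Of the 93 named genes with a call, every one kept its direction in all of 1760 alternative values, 1167 of which kept the call. In each of 10 fits without 1 library 32 genes kept it, and 8 did in every setting run. The alternatives reuse most of the libraries in which these genes were called, so the kept directions are no independent support. Collagen calls, 0 at rest, were 8 with DESeq2 and 12 with voom. The cause of these shifts was not tested. With a biological coefficient of variation of 0.404 and a median SE of 0.276, small changes could fall under the threshold at this number of libraries.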
